A study of Mus musculus with 9 samples.

Results

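The tubulin isotypes are the genes for alpha-, beta- and gamma-tubulin. The set had 10 listed genes: Tuba1a, Tuba1b, Tuba4a, Tubb2a, Tubb2b, Tubb3, Tubb4b, Tubb5, Tubb6 and Tubg1. Its members were all probe sets whose platform annotation gives exactly 1 gene symbol and whose symbol is on that list. This gave 19 probe sets for 8 genes, of 29131 probe sets for 15964 genes in all. Tuba1b and Tubb2b had 0 probe sets under this rule. C2C12 cells, a mouse skeletal myoblast line that fuses into myotubes when serum is lowered, had been kept for 5 days at 37 °C in DMEM with 2% horse serum, and their total RNA was hybridised to 9 Affymetrix arrays, 3 each of the designs U74Av2, U74Bv2 and U74Cv2. The labels give 1 condition and no undifferentiated cells, so the arrays show the tubulin signal of differentiated cells and its spread, and not what changed on differentiation. All arrays carry 1 sample identifier, and the labels name no separate cultures, and what spread there is between replicates may be technical. C2C12 is an established line in culture, and after serum withdrawal such cultures can hold unfused cells beside myotubes, which RNA from the whole dish cannot tell apart. The 9 skeletal muscle markers checked (Myog, Myod1, Acta1, Ckm, Myh3, Des, Cav3, Mymk and Chrna1) were all detected, as defined below.

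Microtubules are hollow polymers of alpha- and beta-tubulin dimers, and gamma-tubulin, in a ring-shaped complex, starts new ones. Mammals carry several genes for each, whose proteins are nearly identical over most of their length and differ mainly in the acidic tail at the end of the chain. In differentiating muscle cells, microtubules come to lie in parallel along the myotube, and nucleation moves from the centrosome to the surface of the nuclei.

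Values are MAS5 signals, which are linear and were scaled on each array by itself. Probes differ in affinity, and levels are therefore not ranked from gene to gene. Each signal was divided by the array's background limit, the 95th percentile of that array's negative control probe sets. Control families whose median exceeded the design's median signal were left out, which lowers the limit. For replicates 1, 2 and 3 the limit came to 206, 280.4 and 256 signal units on U74Av2, and to 498, 430.0 and 963 on U74Bv2. Detection of a probe set means a signal over this limit on each of the 3 arrays that carry it, and a gene needed 1 detected probe set or more. On U74Bv2, replicate 1 was run on another station than replicates 2 and 3, while the U74Av2 arrays shared 1 station. On U74Cv2, which carries list genes but no member, the limits were 1034, 725 and 786, and replicate 1 differed from the others in station and in chip lot. Designs were scanned on different days, and design and scan day cannot be told apart.

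All 8 measured tubulin genes were detected, against 62.0% of all genes and 77.1% of genes with 2 or more probe sets. Among probe sets, 12 of 13 were detected on U74Av2, where 58.2% of all probe sets were, and 2 of 6 on U74Bv2, where 43.8% were. Over both designs together 14 of 19 were detected (73.7%), against 51.0% of all probe sets. U74Cv2, where 31.6% of all probe sets were detected, held 0 of the 19. By family, 3 of 5 alpha-, 10 of 12 beta- and 1 of 2 gamma-tubulin probe sets were detected. No test was run on these shares, since genes and probe sets are not replicates and paralogous tubulins share sequence. For 3 of the 8 genes (Tubb2a, Tubb3 and Tubb4b) every probe set was detected, against 35.4% of all genes. Of the 7 genes with 2 or more probe sets, 5 had some but not all of them detected, against 55.4% of all such genes.

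**Figure D1:**
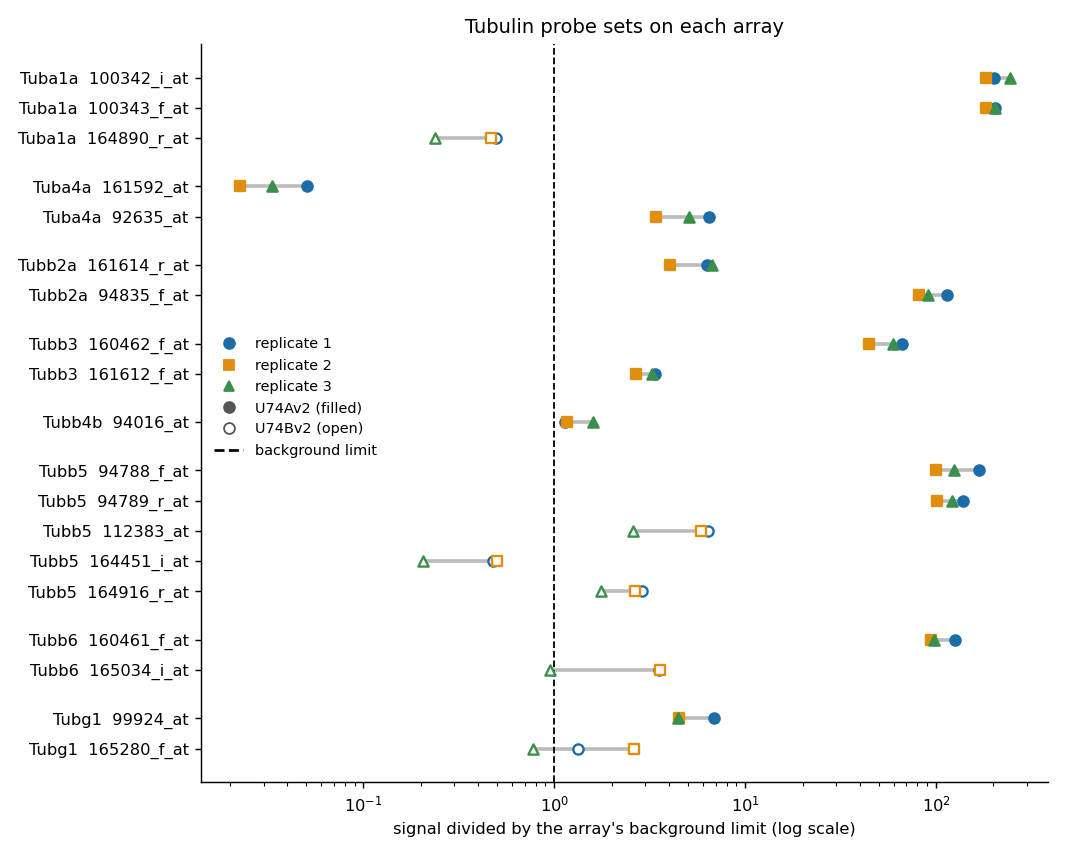
Signal over the background limit (log scale) for each of the 19 tubulin probe sets, with 1 marker per replicate array, filled for U74Av2 and open for U74Bv2. The dashed line is the limit. On U74Av2 every probe set but 161592_at of Tuba4a lay above it on all 3 arrays, and on U74Bv2 only 112383_at and 164916_r_at of Tubb5 did.

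The suffix of a probe set name bears on what its signal can be credited to. On these designs _f_at marks probes that match a family of sequences, _i_at a probe set short of its full number of probes, and _r_at one for which a rule of probe selection was dropped. Such a suffix stood on 14 of the 19 tubulin probe sets (73.7%). It stood on 9 of 13 of them on U74Av2, where 22.6% of all probe sets carried one, and on 5 of 6 on U74Bv2, where 13.8% did. The 5 probe sets with the plain suffix _at belonged to Tuba4a (2 of them), Tubb4b, Tubb5 and Tubg1, and 4 of these 5 were detected, at least 1 for each of the 4 genes. For Tuba1a, Tubb2a, Tubb3 and Tubb6 every probe set carried a suffix, so their signal may hold that of other tubulin genes. On U74Av2 all 9 suffixed tubulin probe sets and 3 of 4 plain ones were detected, against 49.6% of all suffixed and 60.7% of all plain ones. On U74Bv2 the counts were 1 of 5 suffixed and the 1 plain one, against 39.8% and 44.4%.

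Promoter DNA is given for Tuba1a, Tubb5 and Tubb4b, 3 of the 4 searched genes found to hold the CCAAT box described below. They were chosen after their values and matches were seen, and their signals are not compared through this DNA. Each is the 250 bases before the start of the gene from RefSeq (GRCm38.p6), written 5′ to 3′ on the gene's strand, with matches to the motifs below in capitals. Tuba1a is at chr15:98953502-98953751 on the minus strand, Tubb5 at chr17:35838302-35838551 on the minus strand, and Tubb4b at chr2:25224703-25224952 on the minus strand.
Tuba1a: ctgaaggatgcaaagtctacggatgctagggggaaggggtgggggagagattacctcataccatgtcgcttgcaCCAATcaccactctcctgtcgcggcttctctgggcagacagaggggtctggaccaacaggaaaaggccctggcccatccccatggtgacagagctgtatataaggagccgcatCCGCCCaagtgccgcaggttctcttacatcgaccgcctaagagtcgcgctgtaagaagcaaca
Tubb5: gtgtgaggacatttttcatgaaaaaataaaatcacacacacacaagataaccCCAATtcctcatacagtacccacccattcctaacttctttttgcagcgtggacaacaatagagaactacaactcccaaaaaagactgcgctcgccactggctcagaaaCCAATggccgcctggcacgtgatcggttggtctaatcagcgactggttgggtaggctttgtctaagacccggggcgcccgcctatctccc
Tubb4b: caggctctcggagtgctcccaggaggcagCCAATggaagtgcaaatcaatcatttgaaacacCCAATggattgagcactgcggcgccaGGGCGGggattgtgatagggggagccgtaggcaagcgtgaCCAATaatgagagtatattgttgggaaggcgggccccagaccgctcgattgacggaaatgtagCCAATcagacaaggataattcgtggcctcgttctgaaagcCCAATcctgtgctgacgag
The motifs searched on both strands were the CCAAT box (CCAAT), the GC box (GGGCGG), the TATA box (TATAAA) and the E-box letters that myogenic factors bind (CAGCTG or CAGGTG). None of these letter strings contains another. Tubb4b held 5 CCAAT matches and 1 GC box, Tubb5 2 CCAAT matches, and Tuba1a 1 CCAAT match and 1 GC box. Promoters of 7 of the 10 listed genes were searched, Tuba1b among them. Those of Tubb2b, Tubb6 and Tubg1 were not, so the counts do not cover the whole list. Of the 7 searched, 4 held a CCAAT box, 6 a GC box, 1 a TATA box and 3 an E-box. Over all 32851 promoters these shares were 33.8%, 32.7%, 12.4% and 27.7%. The arrays do not measure these sites, and a match is a description of the letters only.

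Among the alpha-tubulins, Tuba1a encodes an isotype known for its abundance in the developing brain. Its probe set 100342_i_at read 41635, 51035 and 62657 signal units in replicates 1, 2 and 3 on U74Av2. Another, 100343_f_at, read 41881, 51279.9 and 52031. Both signals were lowest in replicate 1 and highest in replicate 3. They lay at 209.5 ± 31.7 and 196 ± 11.7 times the limit (SD, n = 3), and both at a mean signal percentile of 99.6, the percentile being the share of the array's probe sets at or below that signal. Both were designed from 1 database entry, so they are no independent measurements of each other. The third probe set of Tuba1a, 164890_r_at, read 247, 202 and 228 on the U74Bv2 arrays. It lay below the limit on all 3, at 0.400 ± 0.142 times (SD, n = 3). One gene was thus at the top of one design and below background on another.

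Tuba4a, an alpha-tubulin whose protein is made without the tyrosine that ends most alpha-tubulins, had 2 plain probe sets on the same design. The first, 92635_at, read 1336, 957 and 1303, or 4.99 ± 1.54 times the limit (SD, n = 3), with replicate 2 the lowest. The other, 161592_at, read 10.4, 6.32 and 8.56, or 0.0355 ± 0.0141 times the limit, at a mean percentile of 1.3. The detection of Tuba4a rests on 92635_at.

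Tuba1b, a widely expressed alpha-tubulin, was named only by probe sets with several symbols, which the rule leaves out. One of these, 98759_f_at, also carries the symbols of Tuba1a, Tuba1c and Gm5620. It read 57664, 66320.4 and 76035 on U74Av2, or 271 ± 31.0 times the limit (SD, n = 3). The other, 168410_i_at on U74Cv2, shared with Gm5620, read 733, 664 and 542 and was below the limit on all 3 arrays, at 0.771 ± 0.125 times. Tuba1b, Tuba1a and Tuba1c lie side by side on mouse chromosome 15, with 0 protein-coding genes between neighbours in the RefSeq gene table of GRCm38.p6. Tubb2a and Tubb2b on chromosome 13, and Tubg1 and Tubg2 on chromosome 11, are immediate neighbours in the same way.

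Tubb5, the class I beta-tubulin found in most tissues, had 5 probe sets, of which 4 were detected. On U74Av2, 94788_f_at read 34308, 28120.4 and 32037 signal units in replicates 1, 2 and 3, and 94789_r_at read 28404, 28346 and 31237. These lay at 131 ± 33.6 and 120.3 ± 18.5 times the limit (SD, n = 3), and were designed from 1 entry. The plain probe set 112383_at on U74Bv2 read 3202, 2518 and 2495, or 4.96 ± 2.07 times the limit. Its highest and lowest arrays differed 1.28-fold in signal, and the lower multiple in replicate 3, 2.59 against 6.42 and 5.86 in replicates 1 and 2, goes with that array's higher limit. Another U74Bv2 probe set, 164916_r_at, read 1433, 1143 and 1690.2 and was detected at 2.43 ± 0.594 times. The last one, 164451_i_at, read 237, 215 and 197, below the limit throughout at 0.393 ± 0.164 times.

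Tubb6, the class V beta-tubulin, is known from differentiating and regenerating muscle. Its U74Av2 probe set 160461_f_at read 25849, 26359 and 24950.2, or 106 ± 17.4 times the limit (SD, n = 3). The replicates lay within 1.06-fold, an SD of log2 signal of 0.040, and 5.6% of the detected probe sets of that design had a smaller one. After quantile normalization this SD was 0.092. On U74Bv2, 165034_i_at read 1763, 1543 and 919. It lay above the limit in replicates 1 and 2, at 3.54 and 3.59 times, and just below it in replicate 3, at 0.954 times, so it did not count as detected. That array had both the lowest signal of the 3 and the highest limit of its design.

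Tubb2a, a class II beta-tubulin abundant in brain, had 2 detected probe sets. One, 94835_f_at, read 23431, 22849 and 23181, or 95.2 ± 16.7 times the limit (SD, n = 3). Its SD of log2 signal was 0.018, and 1.1% of detected U74Av2 probe sets had a smaller one. After quantile normalization the SD of 94835_f_at was 0.061. The other, 161614_r_at, read 1302, 1131 and 1722, or 5.69 ± 1.45 times. Replicate 3 was its highest, and its SD of 0.309 exceeded that of 85.6% of detected probe sets.

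Tubb4b, a class IVb beta-tubulin that is widely expressed and known for its place in cilia, had the single plain probe set 94016_at. It read 234, 328 and 409.7, which is 1.14, 1.17 and 1.60 times the limit of each array. All 3 arrays thus lay above the limit but close to it. The SD of log2 signal was 0.407, and 93.3% of detected U74Av2 probe sets had a smaller one. With the array's median signal (549, 525 and 557) as the limit, Tubb4b was not detected.

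Tubb3, the class III beta-tubulin used as a marker of neurons, had 2 detected probe sets, both of the kind that matches a sequence family. The first, 160462_f_at, read 13726, 12488 and 15293, or 57.0 ± 11.3 times the limit (SD, n = 3). The second, 161612_f_at, read 691, 752 and 837, or 3.10 ± 0.366 times. Their mean percentiles were 97.3 and 56.6. Markers of neurons were looked at beside it. Of 14 neuron markers, 7 were detected, against 62.0% of all genes and 77.1% of genes with 2 or more probe sets. Among the detected markers, 1 of 3 probe sets passed for Map2 and for Nefl, 2 of 6 for Mapt and 1 of 2 for Rbfox3. For Ncam1 it was 2 of 4 and for Stmn2 2 of 3, and Gap43 had a single one. Ncam1, an adhesion molecule that muscle cells also carry, lay at 38.3 ± 11.6 times the limit and Stmn2 at 6.89 ± 2.12 times (SD, n = 3). The other 5 detected markers (Map2, Mapt, Gap43, Nefl and Rbfox3) lay under 3 times the limit in mean, between 1.33 and 2.38 times. Those not detected were Nefm, Dcx, Syp, Snap25, Syt1, Elavl3 and Gria2. Of these, the synaptic genes Snap25 and Syp lay at 0.0898 ± 0.0403 and 0.222 ± 0.0588 times the limit. The summed signal of the 8 markers read on U74Av2 was 12898, 10019.8 and 12028 in replicates 1, 2 and 3. Ncam1 alone made up 10546, 8119.8 and 8915 of it, and the other 7 summed to 2353, 1899.5 and 3113. Of the latter, Stmn2 made up 1691, 1246 and 2055. The neuron sums were lowest in replicate 2, as was 160462_f_at, while 161612_f_at was lowest in replicate 1. On U74Av2 the 6 skeletal muscle markers summed to 107647, 115039.5 and 116825. That sum was lowest in replicate 1 and highest in replicate 3, as was 161612_f_at. Acta1 alone made up 66776, 74069 and 78395 of it and was the only marker in the sum with this order. Of the others, Myod1, Myh3 and Des were lowest in replicate 3, and Myog and Cav3 in replicate 2. On U74Bv2 the sum over 3 neuron markers was 3076, 2515 and 3489, and on U74Cv2, also over 3, it was 4871, 3557 and 3749. The part of neuron-like expression in the Tubb3 signal was not tested.

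**Figure D2:**
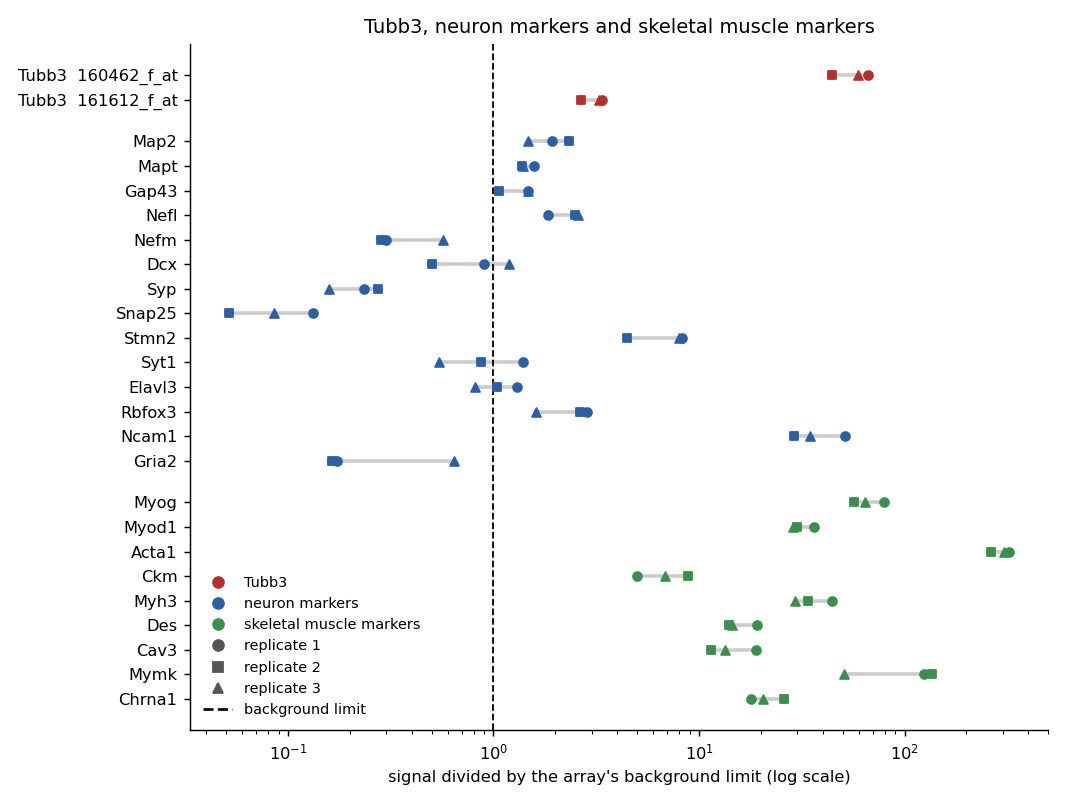
Signal over the background limit (log scale) on each replicate array for the 2 Tubb3 probe sets, 14 neuron markers and 9 skeletal muscle markers, each marker by its probe set of highest mean percentile (among detected ones where there are any). All 9 muscle markers lay above the dashed limit on their 3 arrays, while 7 of the 14 neuron markers did not.

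Tubg1, the gamma-tubulin of the nucleating ring complex, was detected by the plain probe set 99924_at. It read 1423, 1263 and 1143, or 5.29 ± 1.40 times the limit (SD, n = 3), with replicate 1 the highest. On U74Bv2, 165280_f_at read 664, 1128 and 746. It lay at 1.33 and 2.62 times the limit in replicates 1 and 2 and at 0.775 times in replicate 3, and did not count as detected.

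The position of the tubulin probe sets on their arrays fell into separate ranges. Of the 19, 7 probe sets of 5 genes (Tuba1a, Tubb2a, Tubb3, Tubb5 and Tubb6) lay above the 95th percentile in mean, all on U74Av2 and all with a suffix. Taken over all 19 the median percentile was 67.5. Over the 14 detected it was 89.2, against 74.1 for all detected probe sets of the 2 designs. The value of 89.2 is the midpoint between members at 81.1 and 97.3, and rests on few probe sets: without replicate 3 it was 75.7, against 70.8 for all, and with plain probe sets only it was 66.8, against 74.4 for all.

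**Figure D3:**
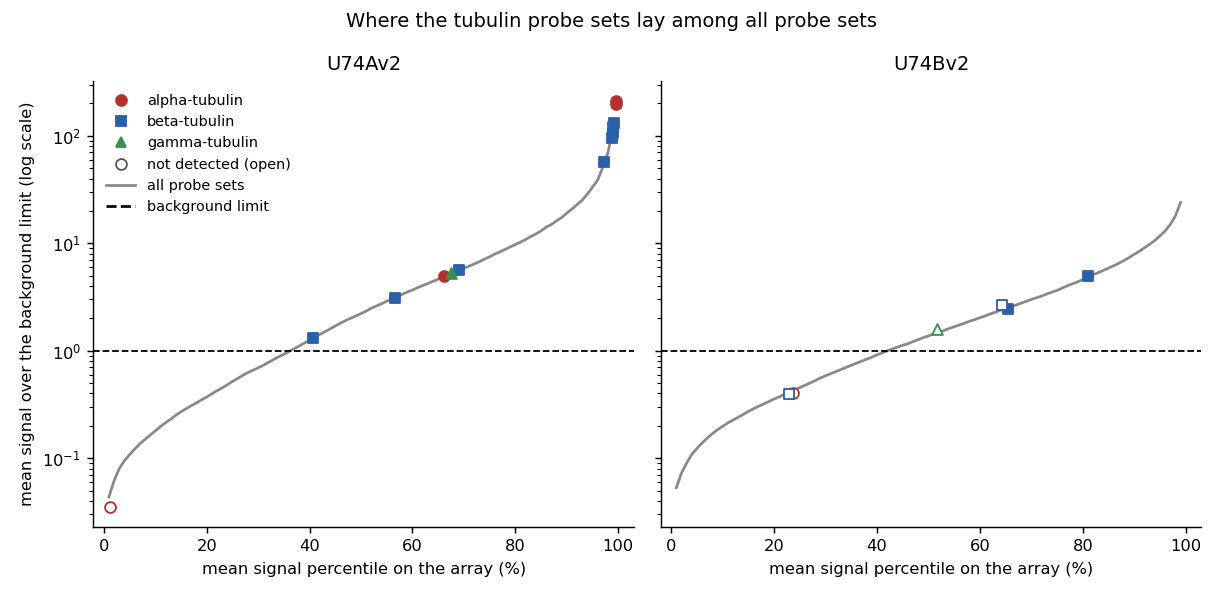
Mean signal over the background limit (log scale) against mean signal percentile for the tubulin probe sets on U74Av2 and U74Bv2, with the curve of all probe sets of each design in grey. Open symbols were not detected. On U74Av2, 7 tubulin probe sets crowd above the 95th percentile, and on U74Bv2 the highest one, 112383_at of Tubb5, lies at 81.1.

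The spread between replicates ran over a wide range. On U74Av2 the median SD of log2 signal was 0.152 over the 12 detected tubulin probe sets, against 0.154 over all detected ones, and 6 of the 12 lay below that median. On U74Bv2 it was 0.244 over 2 tubulin probe sets, against 0.178. Across U74Av2 the single values, as deposited, ran from 0.018 (94835_f_at of Tubb2a) to 0.407 (94016_at of Tubb4b). The median SD over all U74Av2 probe sets from the 95th percentile up was 0.103. In replicate 3 the median log2 deviation from a probe set's own mean was 0.12 over the 12, against 0.00 over all detected probe sets, whose 5th and 95th percentiles were -0.28 and 0.32.

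A shared order of the replicate arrays was seen in some tubulin probe sets. On U74Av2, 4 detected probe sets named genes of the Tuba1 cluster, the 2 of Tuba1a, 101543_f_at of Tuba1c, and 98759_f_at with several symbols. All 4 were lowest in replicate 1 and highest in replicate 3. Among all U74Av2 probe sets at or above the 95th percentile this pattern was seen in 27.1%, and among all detected ones in 16.1%. The log2 deviations of 100342_i_at were -0.29 in replicate 1 and 0.30 in replicate 3, and those of 101543_f_at were -0.10 and 0.11. The 616 probe sets from the 95th percentile up had medians of -0.03 and 0.03. After quantile normalization, 1 of the 4 (100342_i_at) kept the pattern, with deviations of -0.17 and 0.14, and 13.3% of those 616 had it. Probe sequences were not analysed here, and the 4 probe sets may bind the same transcripts, so they are not counted as independent observations. The order was not particular to the alpha-tubulins. Of the 12 detected members on U74Av2, 4 had it as deposited, the 2 of Tuba1a with 161612_f_at of Tubb3 and 94016_at of Tubb4b, and 3 had it after quantile normalization, both beta-tubulins among them. The log2 deviations of 161612_f_at were -0.13, -0.01 and 0.14 in replicates 1, 2 and 3, and those of 94016_at were -0.43, 0.05 and 0.38. Of the bright beta-tubulin probe sets, 160462_f_at of Tubb3 and 94789_r_at of Tubb5 were highest in replicate 3 but lowest in replicate 2, 160461_f_at of Tubb6 was highest in replicate 2, and 94788_f_at of Tubb5 and 94835_f_at of Tubb2a were highest in replicate 1.

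**Figure D4:**
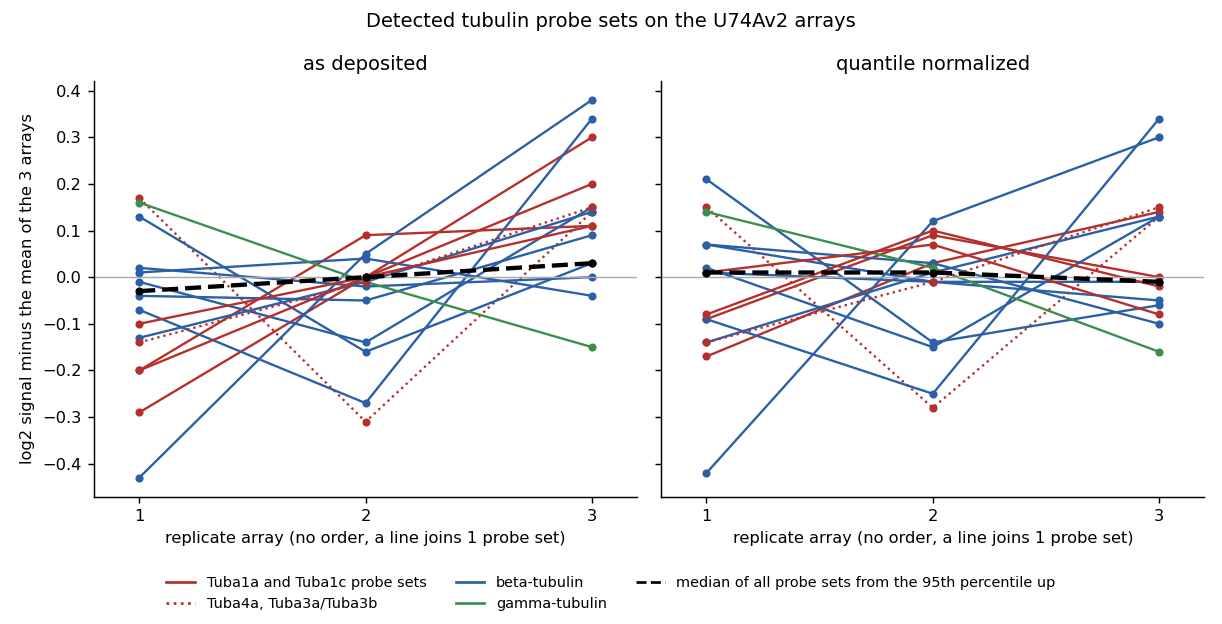
Log2 signal minus the mean of the 3 arrays for the detected tubulin probe sets on U74Av2, as deposited (left) and after quantile normalization (right), including the Tuba1c probe set and 2 probe sets with several symbols. The dashed black line is the median of the 616 probe sets from the 95th percentile up. As deposited, the 4 solid red lines lie below 0 in replicate 1 and above 0 in replicate 3, and after quantile normalization 1 of them has its lowest value in replicate 1 and its highest in replicate 3.

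Genes for proteins that fold tubulin, nucleate, bind and cut microtubules or move along them were looked at on lists. Over 7 lists, 96 of 111 measured genes (86.5%) were detected, against 62.0% of all genes. Of those with 2 or more probe sets, 56 of 62 were, against 77.1% of all such genes. With all control families kept in the limit, 49 of the 111 (44.1%) were detected, against 23.4% of all genes. A suffixed probe set stood for 21 of the 96 detected genes, so the value may hold signal of related genes. Among the genes named next these are Tuba1c, Tubg2, Mzt2, Svbp, Stmn3, Kif5b, Klc1 and Dynlt3. Of the other tubulins 4 of 8 were: Tuba1c at 255 ± 30.5 times the limit, Tuba8, an alpha-tubulin known from muscle and testis, at 8.03 ± 1.42 times, Tubb4a at 5.21 ± 0.648 times (SD, n = 3), and Tubg2. Tuba3a, Tubb1 (the beta-tubulin of platelets), Tubd1 and Tube1 were not. Tubb1 lay at 0.0676 ± 0.0307 times the limit of U74Cv2. Tuba1c and Tubg2 rest on a single probe set with the family suffix each, and that of Tubg2, 99925_f_at, lay at 3.76, 1.27 and 1.07 times the limit in replicates 1, 2 and 3. Several detected genes named below also had probe sets that were not detected. For Clasp1 and Dynlt3 1 of 4 was detected, and for Macf1, Stmn1 and Svbp 1 of 2. For Ttl and Stmn3 it was 2 of 4, for Tubgcp6 2 of 3 and for Kif5b 3 of 4.

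All 22 folding genes were detected. They include the chaperonin that folds tubulin, prefoldin that hands it over, and the cofactors that assemble the dimer. The chaperonin subunits Cct5, Cct4 and Cct7 lay at 72.9 ± 8.30, 58.6 ± 12.4 and 40.9 ± 11.5 times the limit (SD, n = 3). All 14 measured modification genes were detected, among them Ttl, the ligase that returns the final tyrosine to alpha-tubulin, at 11.1 ± 2.87 times, Svbp, the partner of the enzymes that remove it, at 12.9 ± 6.58 times, and the glutamylase gene Ttll5 at 10.8 ± 3.72 times. Of the nucleation genes 10 of 13 were detected (76.9%), against 62.0% of all genes and 77.1% of genes with 2 or more probe sets. Mzt1, a small protein of the gamma-tubulin ring, read 6966, 6522 and 6727 signal units on U74Bv2, between 6.98 and 15.2 times the limit. Mzt2, another small ring protein, lay at 10.9 ± 2.17 times, and Tubgcp6 of the ring lay at 4.09 ± 1.70 times. Tubgcp2, Tubgcp5 and Nin were not detected. Tubgcp5 and Nin passed on 2 of 3 arrays and missed on the U74Bv2 array of replicate 3.

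Lattice and plus-end binding proteins were detected in 16 of 23 cases (69.6%), against 62.0% of all genes and 77.1% of genes with 2 or more probe sets. Macf1, which links microtubules to actin, lay at 41.7 ± 9.61 times the limit, Clasp1, which stabilises growing ends, at 16.6 ± 8.38 times, and Map1a, a binder along the lattice, at 14.3 ± 0.935 times (SD, n = 3). All 9 measured destabilisers and severing enzymes were detected, with Stmn1, which sequesters tubulin dimers, at 16.3 to 23.6 times the limit, Stmn3 at 13.1 ± 2.37 times and the katanin-like gene Katnal1 at 3.85 ± 1.06 times. Motors gave 21 of 22, all but Kif5c, which passed on 2 of 3 arrays and missed on the U74Bv2 array of replicate 3. Kif5b, the kinesin heavy chain that positions nuclei in myotubes, lay at 37.0 ± 15.2 times. Its light chain gene Klc1 lay at 44.6 ± 7.71 times, and the dynein light chain gene Dynlt3 at 35.1 ± 9.52 times. The signals of Kif5b were 20167, 21559 and 19576 on U74Bv2, where the limits were 498, 430.0 and 963. The SD of its multiple thus holds the spread of the limits too, as for Clasp1, Svbp and Ttll5 on that design.

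**Figure D5:**
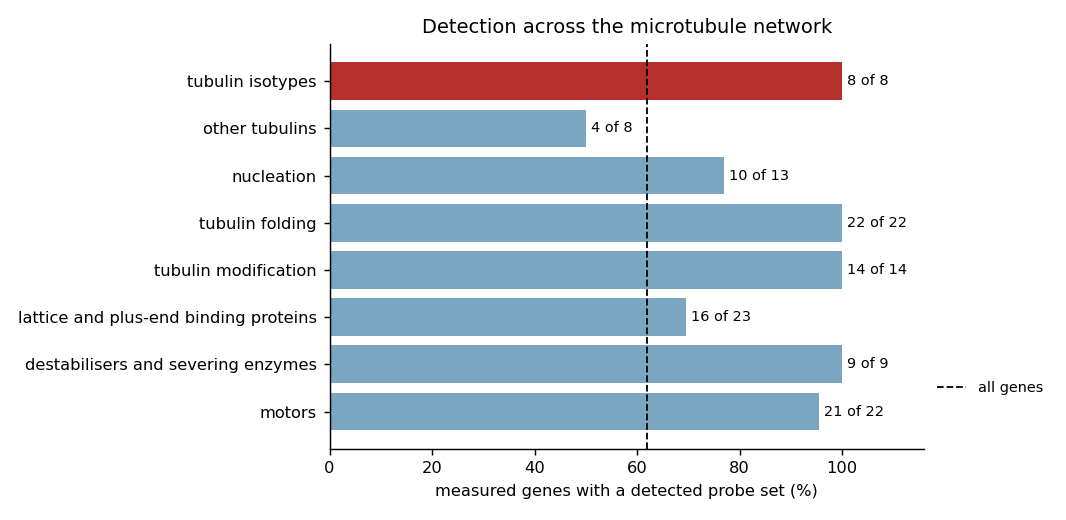
Percent of measured genes with a detected probe set for the tubulin isotypes (red) and 7 lists of the microtubule network (blue), with detected and measured numbers beside each bar and the share of all genes, 62.0%, as a dashed line. The other tubulins (4 of 8) lie below that line and the remaining lists above it.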

How the data were processed

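The deposited probe set intensity values are linear and came from MAS5, per the submitters' processing notes, which name neither version nor settings. The authors' scaling had brought every array to one level, as the 2% trimmed means of 1500.3 to 1500.9 show. Chip type, lot and station came from the instrument files, and the chip matched the label on all 9 arrays. The negative controls comprised the spike-in bacterial probe sets (Dap, Lys, Phe, Thr, Trpn) and the reverse-strand ones, without families whose median exceeded the design's median signal (20, 20 and 17 left on U74Av2, U74Bv2 and U74Cv2). SDs are over log2 signals or multiples of the limit, and those over multiples also hold the spread of the array limits. A list gene is represented by its probe set of highest mean percentile, among detected ones where there are any. In each list the 3 detected genes with the highest mean percentile are named, and those not detected where they are 5 or fewer. Symbols came from the platform annotation, and the Entrez identifiers of the 8 measured members all matched RefSeq. Members, lists and limits were chosen with earlier results of these data known. No hypothesis test was made, since there is 1 condition; the 3 replicates limit the precision. The detection step was run on simulated data with signals set well above or well below the limit and with no bright control families. That run therefore says nothing on signals close to the limit, such as those of Tubb4b, or on the choice of control families. Alternatives covered the limit, the arrays needed, suffixes, normalization and single replicates. Software was numpy 2.4.6 and pandas 2.3.3 under Python 3.11.15, with matplotlib 3.10.9 for plots and scipy 1.17.1.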

Additional observations from a re-analysis of the deposited data

Results flagged for a closer look

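Tubulin probe sets with several gene symbols fall outside the rule for members, and 3 of 5 such probe sets gave signal above the background limit on all 3 arrays of their design. The probe set 98759_f_at, which names Tuba1a, Tuba1b, Tuba1c and Gm5620, lay at 271 times the background limit. The probe set 93924_f_at, which names Tuba3a and Tuba3b, lay at 11.8 times and read 2619, 2861 and 3189 signal units in replicates 1, 2 and 3. The probe set 164955_f_at, which names Tuba1c and Gm6682, was measured on U74Bv2, with readings of 2110.1, 2345 and 2075 and a mean of 3.95 times the limit.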

How the results depend on the processing

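Without 1 replicate on every design, between 14 and 16 tubulin probe sets were detected (14 with all arrays), 8 genes in each case, and between 97 and 100 network genes (96 with all arrays). The median percentile of the detected probe sets lay between 75.7 and 89.7, and the median SD of log2 signal between 0.121 and 0.181. Without only the U74Bv2 array of replicate 3, an alternative added after seeing the data, 16 probe sets were detected and the median percentile was 75.7; the 2 gained were 165034_i_at of Tubb6 and 165280_f_at of Tubg1. The same 2 were gained with the 90th percentile of the controls as the limit, and with 2 of 3 arrays required, at a median percentile of 75.1 each. With all control families kept, the limits on U74Av2 were 1413, 1300.0 and 1719, and 7 probe sets of 5 genes, at a median percentile of 99.0, and 49 network genes were detected (44.1%, against 23.4% of all genes); Tuba4a, Tubb4b and Tubg1 were lost. With plain suffixes only, 4 probe sets of 4 genes were detected, with a median percentile of 66.8 and a median SD of 0.236. Requiring every probe set of a gene left 3 tubulin and 54 network genes (48.6% of those measured, against 35.4% of all genes). With no filter on low signal the median percentile was 67.5. Of 60 alternative values, 44 stayed within set bounds. For counts the bound was a change of no more than 1.5 times. For the median percentile it was the SD between replicates, 1.5. For the median SD of log2 signal it was the SD of the 3 leave-one-out values, 0.033, which are themselves among the alternatives. The cause of these shifts was not tested beyond what each alternative does by construction. No paired analysis was possible because no result comes from a test between groups. Signal over background limits what can be said of Tubb4b and of the U74Bv2 probe sets.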
